A study of Mus musculus with 4 samples.

Results

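The neural crest is a transient cell population of the vertebrate embryo that gives rise to melanocytes, peripheral neurons and glia, and much of the facial skeleton. Its specification and the later choice of the melanoblast fate depend on a small network of transcription factors of the SOX, PAX, FOX, AP-2, SNAIL, ZEB and LEF families. In melanoblasts SOX10, PAX3 and LEF1 act on the promoter of the melanocyte isoform of Mitf, so these factors stand upstream of Mitf in development. The set followed here comprised 10 of them in mouse embryonic fibroblasts (MEFs) in which Mitf itself was switched on. These were Sox10, Sox9, Sox5, Pax3, Foxd3, Tfap2a, Tfap2b, Snai2, Zeb2 and Lef1. They were chosen by name and made up 10 of 22835 genes measured, and 106 of their exons were in the deposited exon table.

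RNA-seq was carried out on 1 library per group, so no difference below has a replicate check and no p-value was computed. The Mitf knock-in MEFs carried the M2rtTA transactivator at the ROSA26 locus and a TetO-driven M-Mitf, the melanocyte isoform, downstream of Col1a1, together with an mCherry transgene. They came from 1 correctly targeted KH2 embryonic stem cell clone that was injected into BDF2 host blastocysts, and the resulting embryos were chimeras of these and host cells. The mCherry transgene and puromycin resistance allow transgenic cells to be purified from such cultures, but whether this was done for these libraries was not given in the sources used here. Dox (-) denotes these MEFs at passage 5 without doxycycline (Dox) and Dox (+) the same kind of cells at passage 5 after 6 days of Dox, which turns on M-Mitf. WT MEF denotes wild-type MEFs at passage 3, so that genotype and passage cannot be told apart in any comparison with that library. The strain of the wild-type embryos was not given in the sources used here. All 3 cultures were kept in DMEM with 10% FBS. Primary melanocytes (PMel, passage 5) were the fourth group and were not analysed here.

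The values were RPKM, in which the reads on an exon are scaled by its length and by the aligned reads of its library. Multiplied by exon length and a depth of 45000000 reads for WT MEF and Dox (-) and 44000000 for Dox (+), between 96.9% and 97.2% of the values below 200 reads came out as whole reads, within 0.02 of a whole number. These reads give the counting error at a confidence level of 95%, which is the only error available. A floor of 3 reads on a 150 bp exon corresponds to 0.444 RPKM in WT MEF and Dox (-) and 0.455 RPKM in Dox (+). The level of a gene was that of its highest exon, as the study defined it, which favours short exons with few reads. A gene was called higher or lower where the larger of its 2 levels passed 10 RPKM and exceeded the smaller by more than 4-fold, and log2 fold changes were taken after adding 1 RPKM, which understates the change of low genes. The switch itself was in place, since Mitf measured 1.52 RPKM in WT MEF, 30.8 RPKM in Dox (-) and 1544 RPKM in Dox (+). Fibroblast markers were present in each library, with 7 of 8 above 10 RPKM in WT MEF and 8 of 8 in Dox (-) and Dox (+). The exception was Lum, a matrix proteoglycan, at 6.07 RPKM in WT MEF.

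The factors occupied different levels in unmodified fibroblasts. Snai2, Sox9 and Zeb2 were above 10 RPKM in WT MEF, at 65.3, 23.2 and 16.7 RPKM. Sox5 followed at 6.67 RPKM, and the other 6 factors were between 0 and 0.383 RPKM. In Dox (-) the same number of factors, 3, was above 10 RPKM, but 8 were above 1 RPKM where 4 had been in WT MEF. In Dox (+) 5 were above 10 RPKM and 8 above 1 RPKM. For all genes, the share above 10 RPKM was 52.0%, 56.0% and 53.9% in the 3 libraries in the same order. The median level of all genes was 12.4, 17.9 and 15.2 RPKM. The share of all genes above 1 RPKM is not given, so the counts of factors above 1 RPKM are a description only.

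**Figure D1:**
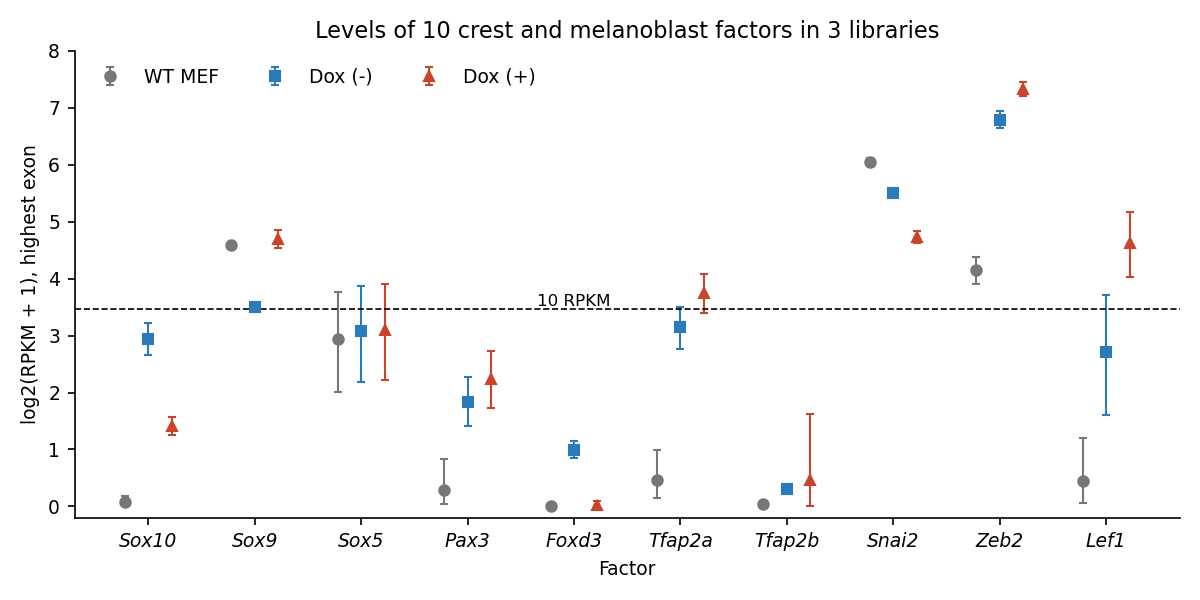
Levels of the 10 factors in the 3 libraries. The vertical axis is log2 of RPKM + 1 on the highest exon, each point is 1 library, bars are exact 95% Poisson intervals of the reads on that exon, and the dashed line marks 10 RPKM. Zeb2 and Lef1 are highest in Dox (+), Snai2 in WT MEF, and Sox10 and Foxd3 in Dox (-).

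The order of the levels shifted between libraries. In Dox (-) Zeb2 stood first at 110 RPKM and Snai2 second at 44.1 RPKM. Sox9 (10.3), Tfap2a (7.82), Sox5 (7.41), Sox10 (6.69) and Lef1 (5.56 RPKM) came next, and the counting intervals of each neighbouring pair among these overlapped. Pax3 was at 2.58, Foxd3 at 0.993 and Tfap2b at 0.232 RPKM. In Dox (+) Zeb2 led at 160 RPKM, and Snai2 (25.5), Sox9 (25.0) and Lef1 (23.7 RPKM) could not be ordered within their intervals. Tfap2a (12.4), Sox5 (7.58), Pax3 (3.70) and Sox10 (1.66 RPKM) followed, with Tfap2b at 0.373 and Foxd3 at 0.0192 RPKM last.

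Between Dox (+) and Dox (-), the comparison that asks what Mitf induction changes, 5 of the 10 factors passed 10 RPKM, 1 of them was called higher and none lower. The factor called higher was Lef1. Among the 13307 genes tested 1.64% were called higher and 5.41% lower. The median log2 fold change was 0.27 over the 10 factors and 0.60 over the 5 that passed, beside 0.23 over all genes tested. In Dox (-) against WT MEF 3 factors passed and 1, Zeb2, was called higher, against 8.26% of 13234 genes higher and 1.21% lower. In Dox (+) against WT MEF 5 passed and 3, Tfap2a, Zeb2 and Lef1, were called higher, against 6.55% of 12941 genes higher and 3.4% lower. No factor was called lower in these comparisons either. The median log2 fold change over the factors that passed was -0.56 in the former and 3.18 in the latter, with 0.01 and 0.27 over all genes tested. Over all 10 factors it was 1.28 and 0.88. In both comparisons of Dox (+), Tfap2a and Lef1 passed 10 RPKM only through Dox (+), the library where they were high. The medians over the factors that passed depend on this filter and are a description only. The 3 comparisons share libraries and are not independent of each other. Relative to the shift of all genes between Dox (+) and Dox (-), the log2 fold changes were 1.69 for Lef1, 0.98 for Sox9, -0.99 for Snai2, -1.19 for Foxd3 and -1.76 for Sox10, and lay between -0.20 and 0.38 for the other 5. Sox5 changed sign when the libraries were rescaled by their median ratio, and Tfap2b when reads were summed over exons.

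**Figure D2:**
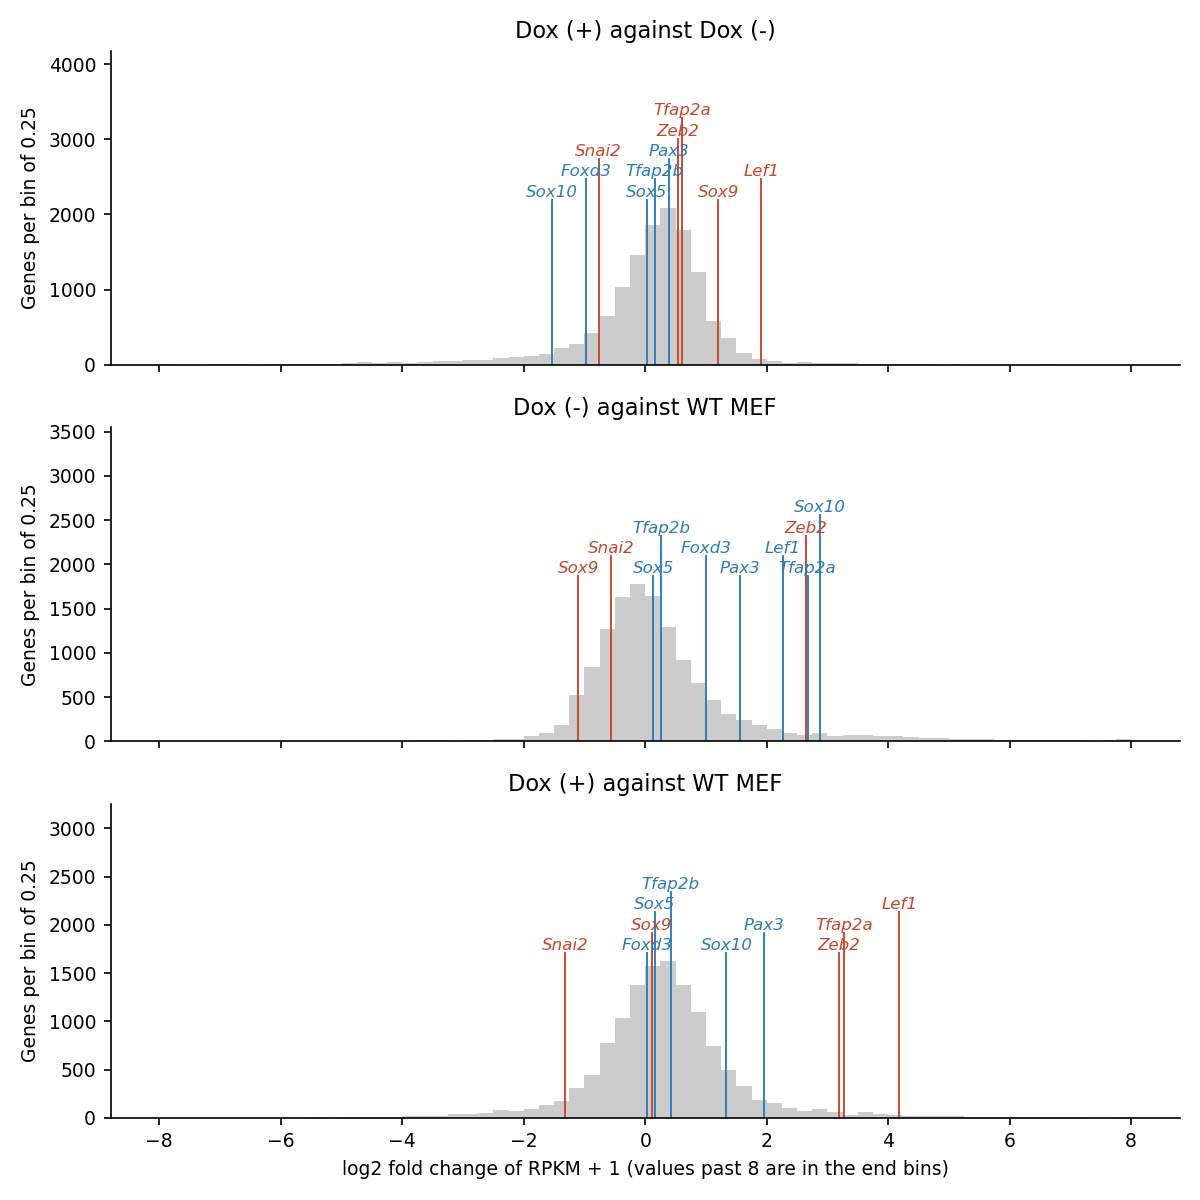
Log2 fold changes of the 10 factors (vertical lines) over those of all genes above 10 RPKM in at least 1 library of the pair (grey bars, genes per bin of 0.25 log2 units), for each of the 3 comparisons. Red lines are factors that passed 10 RPKM and blue lines those that did not; Lef1 lies farthest to the right in both comparisons of Dox (+).

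Lef1, the nuclear partner of beta-catenin that activates WNT target genes and with it the Mitf promoter, showed the highest log2 fold change of the 10 factors between Dox (+) and Dox (-). Its highest exon measured 0.361 RPKM in WT MEF, 5.56 RPKM in Dox (-) and 23.7 RPKM in Dox (+). The log2 fold change of 1.91 between Dox (+) and Dox (-) was reached or passed by 1.58% of the 17440 genes above 1 RPKM. The exon that set the level in both knock-in libraries is only 24 bp long, with 25 reads in Dox (+) and 6 in Dox (-), a 4.26-fold ratio with a counting interval of 1.71 to 12.7. The rest of the gene moved with it. All 13 non-overlapping exons had more reads per depth in Dox (+), and summed over them 14, 224 and 906 reads were recorded in WT MEF, Dox (-) and Dox (+), a 4.14-fold ratio between the knock-in libraries. Reads that span a junction can be counted on more than 1 exon, so such sums overstate the number of separate reads. The call itself was not stable, since the summed level in Dox (+) was 5.87 RPKM, under the threshold, and rescaling the libraries by their median ratio brought the fold under 4.

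The 24 bp exon is the first exon of 1 of the 4 full-length Lef1 transcripts with listed exons and lies at chr3:131112797-131112820 on the plus strand (mm10). The other 3 start at chr3:131110471-131111678, in an exon that overlaps the antisense gene Gm43352 and held 4, 51 and 147 reads, 2.95-fold more per depth in Dox (+) than in Dox (-) with an interval of 2.13 to 4.14. Both first exons thus held more reads per depth in Dox (+), and the intervals of their ratios overlapped. The 24 bp exon lies between the longer first exon and the next shared exon. How reads spliced across an intron were counted is not stated in the sources used here. Such reads may count on the 24 bp exon, so its reads do not show use of that start. RefSeq's table for GRCm38.p6 places a start 6 bases before this exon, at chr3:131112791, and the 250 bases before that start, chr3:131112541-131112790, are shown because the gene's level was read from that exon. No capitals appear, as neither E-box form searched for below was found there.
Lef1 upstream of the RefSeq start beside the short exon: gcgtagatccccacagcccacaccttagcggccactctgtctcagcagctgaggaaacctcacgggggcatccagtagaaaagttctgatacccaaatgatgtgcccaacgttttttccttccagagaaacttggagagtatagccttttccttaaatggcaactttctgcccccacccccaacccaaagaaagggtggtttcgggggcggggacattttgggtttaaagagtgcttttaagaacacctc

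A second feature of Lef1 was an internal 84 bp exon, chr3:131191023-131191106, which is coding and is present in 2 of these 4 transcripts and absent from the others. It held 0, 2 and 35 reads in WT MEF, Dox (-) and Dox (+), or 0.529 RPKM in Dox (-) and 9.47 RPKM in Dox (+). The exon before it measured 2.44 and 10.7 RPKM, and the exon after it 1.99 and 12.4 RPKM, in the same libraries. In Dox (-) the alternative exon thus stood below its neighbours, and in Dox (+) it stood close to them. Its ratio of 17.9 had an interval of 4.60 to 154, which overlapped those of the neighbours (4.40, interval 2.18 to 9.81, and 6.23, interval 3.27 to 13.1), so a change in exon use was not detectable at this depth. Reads that skip this exon may also count on it if spliced reads were counted across introns. Its reads would then not measure inclusion alone. This exon was picked out after its values were seen. Its length is a multiple of 3, and its sequence, cut from transcript Lef1-201 in GENCODE M21, is shown with the 3 bases next to each splice site in capitals.
Lef1 alternative exon: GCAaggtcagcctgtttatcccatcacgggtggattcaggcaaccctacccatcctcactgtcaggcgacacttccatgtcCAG

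Other genes of the WNT response were mixed. Of 12 listed genes 11 were measured and 8 passed 10 RPKM between Dox (+) and Dox (-), of which none was called higher and 1 lower. That gene was Lgr5, an R-spondin receptor that is itself a WNT target, at 11.4 RPKM in WT MEF, 45.1 RPKM in Dox (-) and 1.38 RPKM in the induced cells. Against WT MEF, Dox (+) had 2 genes higher and Lgr5 lower. Tcf7, a close relative of Lef1, measured 2.27, 7.41 and 19.9 RPKM in WT MEF, Dox (-) and Dox (+). Axin2, a feedback inhibitor of the pathway, measured 0.647, 7.18 and 10.4 RPKM. Between Dox (+) and Dox (-) the median log2 fold change was 0.13 over the 8 genes that passed, beside 0.23 over all genes tested. It was 0.11 over all 11 measured.

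**Figure D3:**
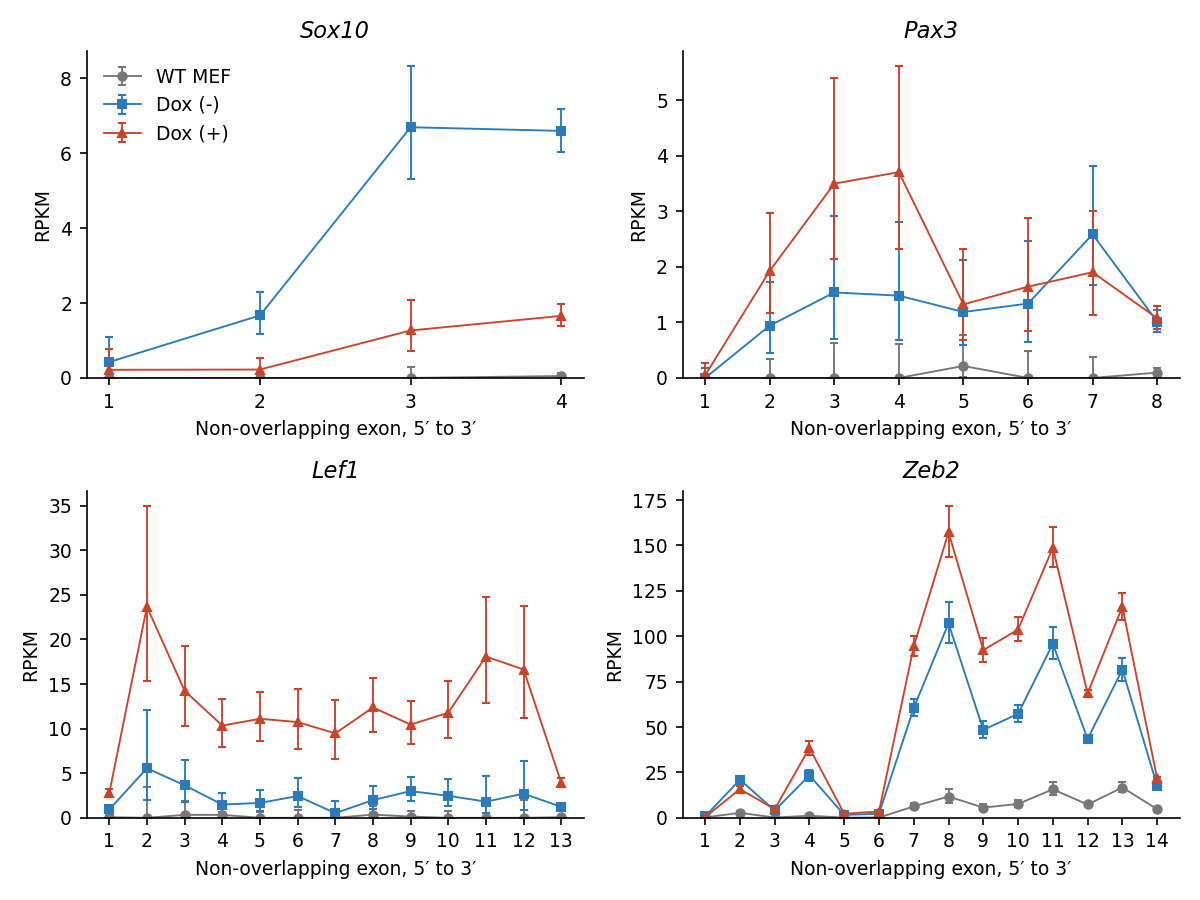
RPKM along the non-overlapping exons of Sox10, Pax3, Lef1 and Zeb2, numbered 5′ to 3′, in WT MEF (grey), Dox (-) (blue) and Dox (+) (red) with exact 95% Poisson intervals. Dox (+) lies above Dox (-) on all 13 Lef1 exons and below it on all 4 Sox10 exons.

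Zeb2 and Snai2 are zinc-finger repressors of epithelial genes that act when crest cells leave the neural tube, and Zeb2 is also needed for melanocyte differentiation. They ran in opposite directions. Zeb2 measured 16.7 RPKM in WT MEF, 110 RPKM in Dox (-) and 160 RPKM in Dox (+). On 1 exon of 69 bp with 341 reads in Dox (-) and 37 in WT MEF the ratio was 9.22 (6.55 to 13.3), and Zeb2 was called higher there. It was also called higher in Dox (+) against WT MEF, with a ratio of 13.4 (9.59 to 19.3) on the same exon. Summed over non-overlapping exons the ratios to WT MEF were smaller, 5.22 for Dox (-) and 7.46 for Dox (+). On the 5522 bp last exon they were 3.67 and 4.50, so the size of the difference depended on the exon. Between Dox (+) and Dox (-) the ratio was 1.45 (1.26 to 1.68), above 1 beyond counting error but far from the 4-fold rule, and 28.0% of genes had a log2 fold change at least as large as its 0.54.

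At its 5′ end 1 exon of Zeb2 differed from the rest of the gene. The exon at chr2:45112823-45113279 on the minus strand, the first exon of transcript Zeb2-202, held 57, 432 and 318 reads in WT MEF, Dox (-) and Dox (+). It was lower in Dox (+) than in Dox (-), with a ratio of 0.753 (0.649 to 0.872). The exon at chr2:45110016-45110244, whose 142 bp core is shared by 11 transcripts, held 12, 241 and 388 reads and was higher in Dox (+), with a ratio of 1.65 (1.40 to 1.94). Of 14 non-overlapping exons 12 were higher in Dox (+), and the 2 that were lower were the 2 nearest the 5′ end, the outer of which held only 7 and 3 reads (ratio interval 0.0731 to 1.92). The third from the 5′ end, with 57 and 66 reads, had a ratio of 1.18 (0.818 to 1.72). The intervals of the first exon of Zeb2-202 and of the shared exon did not overlap. The library kit does not mark strand and that first exon overlaps the antisense gene Zeb2os, so reads of the 2 genes cannot be told apart on it. The comparison of these exons was chosen after their values were seen.

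Snai2 measured 65.3 RPKM in WT MEF, 44.1 RPKM in Dox (-) and 25.5 RPKM in Dox (+). All 3 of its exons had fewer reads per depth in Dox (+) than in Dox (-), and on the 549 bp exon 616 reads stood against 1089, a level 1.73-fold lower (1.56 to 1.91). Against WT MEF, Dox (+) was 2.56-fold lower (2.33 to 2.82) and Dox (-) 1.48-fold lower (1.37 to 1.60). None of these reached the 4-fold rule. Snai2 was the only factor of the 10 whose level was lower at each step from WT MEF to Dox (-) to Dox (+). Zeb2, Tfap2a, Lef1, Pax3 and Sox5 were higher at each step, both on the highest exon and on summed reads, although for Sox5 the highest exon differed by less than counting error and the step from Dox (-) to Dox (+) changed sign after rescaling.

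Epithelial genes that SNAI2 and ZEB2 are known to repress were at low levels in most cases. Of 10 listed, 1 passed 10 RPKM between Dox (+) and Dox (-) and none was called. Cdh1, encoding E-cadherin, was called lower in both knock-in libraries than in WT MEF, at 21.7 RPKM in WT MEF, 1.08 RPKM in Dox (-) and 0.697 RPKM in Dox (+). Crb3, an apical polarity gene, was called higher in Dox (+) than in WT MEF, at 17.2 and 2.72 RPKM. The median log2 fold change was -2.23 over the 2 genes that passed in Dox (-) against WT MEF and -1.09 over the 3 that passed in Dox (+) against WT MEF, and 0.02 and -0.01 over all 10.

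Sox10, which is needed for melanoblasts and Schwann cells alike and activates Mitf, was highest in Dox (-). It measured 0.0514 RPKM in WT MEF, 6.69 RPKM in Dox (-) and 1.66 RPKM in Dox (+). Its 4 exons, taken 5′ to 3′, held 0, 0, 0 and 4 reads in WT MEF, 4, 38, 81 and 513 reads in Dox (-) and 2, 5, 15 and 126 reads in Dox (+). Every exon was thus highest in Dox (-), although on the first the 4 and 2 reads differed by less than counting error. Summed, 4 reads in WT MEF stood against 636 in Dox (-) and 148 in Dox (+), and Dox (+) was 4.20-fold lower than Dox (-). On the 269 bp exon the level was 5.28-fold lower in Dox (+) (3.02 to 9.87), and Dox (-) was at least 27.0-fold above WT MEF with the floor of 3 reads per library. Since Sox10 did not pass 10 RPKM it was not tested by the call rule, and with a threshold of 1 RPKM it was the only factor called lower in Dox (+).

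Foxd3, an early crest gene that represses Mitf and the melanoblast fate, was also highest in Dox (-). Its single exon held 0 reads in WT MEF and about 104 in Dox (-) and 2 in Dox (+). These are estimates with the GENCODE M21 length, rounded to whole numbers. The length in the deposited counting was not exactly that one, so the true count in Dox (-) may differ by a few reads. The corresponding levels were 0, 0.993 and 0.0192 RPKM. On the rounded reads, which give a slightly different ratio than the levels, Dox (-) was 50.8-fold above Dox (+), with an interval of 13.7 to 425. On the same reads it was at least 34.7-fold above WT MEF. Dox (+) and WT MEF, with 2 and 0 reads, could not be ordered. These are ratios of low levels, and the log2 fold change after adding 1 RPKM was -0.97, which 13.6% of genes reached or passed. The exon also contains the small RNA gene Gm23366.

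The promoter window of Foxd3 contained the E-box TCACGTG, a sequence that MITF can bind. Windows of 300 bases (250 before and 50 after the start) from RefSeq's table for GRCm38.p6 were found for 6 of the factors, Tfap2b, Zeb2, Lef1, Foxd3, Sox5 and Tfap2a, 13 windows in all. TCACGTG, searched on both strands, was in 2 of the 13 and in 3.77% of all 32851 windows. TCATGTG, likewise in 3.77% of all windows, was in none of the 13. The other match was a Lef1 window for an internal start at chr3:131156294, where 2 overlapping copies on opposite strands begin 80 bases before the start and where no listed exon begins. In Foxd3 the match begins 218 bases before the start. The bases chr4:99656049-99656298 on the plus strand are shown with the match in capitals, which is a description of letters and not of binding.
Foxd3 promoter: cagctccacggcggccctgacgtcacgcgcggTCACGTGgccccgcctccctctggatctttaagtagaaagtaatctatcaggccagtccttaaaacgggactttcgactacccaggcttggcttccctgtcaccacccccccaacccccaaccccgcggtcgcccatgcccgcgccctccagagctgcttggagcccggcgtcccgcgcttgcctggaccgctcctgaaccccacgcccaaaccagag

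Markers of Schwann cells and glia, which express Sox10, moved in the same order when summed. Their summed level over the 6 genes reported was 9.27 RPKM in WT MEF, 177 RPKM in Dox (-) and 34.4 RPKM in Dox (+), and none of the 6 was at 0 in any library. The number above 10 RPKM was 0, 2 and 1. Between Dox (+) and Dox (-) 2 of 6 were called lower, Fabp7 (144 to 24.3 RPKM), a lipid-binding protein of glial precursors, and Cdh19 (14.4 to 0.722 RPKM), a cadherin of Schwann cell precursors. Fabp7 alone gave 144 of the 177 RPKM in Dox (-) and 24.3 of the 34.4 RPKM in Dox (+), so the sums mostly follow that gene. Fewer cells of a type and less RNA per cell cannot be told apart in bulk RNA, and the part of these markers in the Sox10 and Foxd3 values was not tested.

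Macrophage markers differed more widely between the libraries. Over 8 genes they summed to 50.6 RPKM in WT MEF, 13324 RPKM in Dox (-) and 474 RPKM in Dox (+), and all 8 were called lower in Dox (+) than in Dox (-). Only Fcgr1 was at 0, and only in WT MEF. Summed levels of the fibroblast list were 19669, 52657 and 13058 RPKM in the same order. Of its 8 genes 5 were called lower in Dox (+) than in Dox (-) and 0 higher. Those of the endothelial list summed to 9.37, 17.6 and 5.78 RPKM. Chondrocyte markers summed to 612, 41.3 and 15.8 RPKM, with medians of 3.35, 3.29 and 0.683 RPKM. Col2a1, described below, gave most of that sum in WT MEF. Neuron markers summed to 1302, 123 and 247 RPKM, but their medians were 0, 0.805 and 0.655 RPKM. In WT MEF 5 of the 8 neuron markers were at 0, so that sum rests on few genes. Muscle markers summed to 13.1, 574 and 1808 RPKM, of which Des alone gave 11.6, 571 and 1805 RPKM. Keratinocyte markers summed to 66.6, 8.73 and 32.9 RPKM and lymphocyte markers to 0.644, 5.15 and 3.24 RPKM. Melanocyte markers summed to 4.55, 6.84 and 266 RPKM, with 3, 2 and 1 of 8 at 0, Tyrp1 and Mlana called higher in Dox (+) and Oca2 at 0 throughout. Dox (-) therefore differed from both other libraries in markers of several cell types, and the part of this in any value of the 10 factors was not tested.

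**Figure D4:**
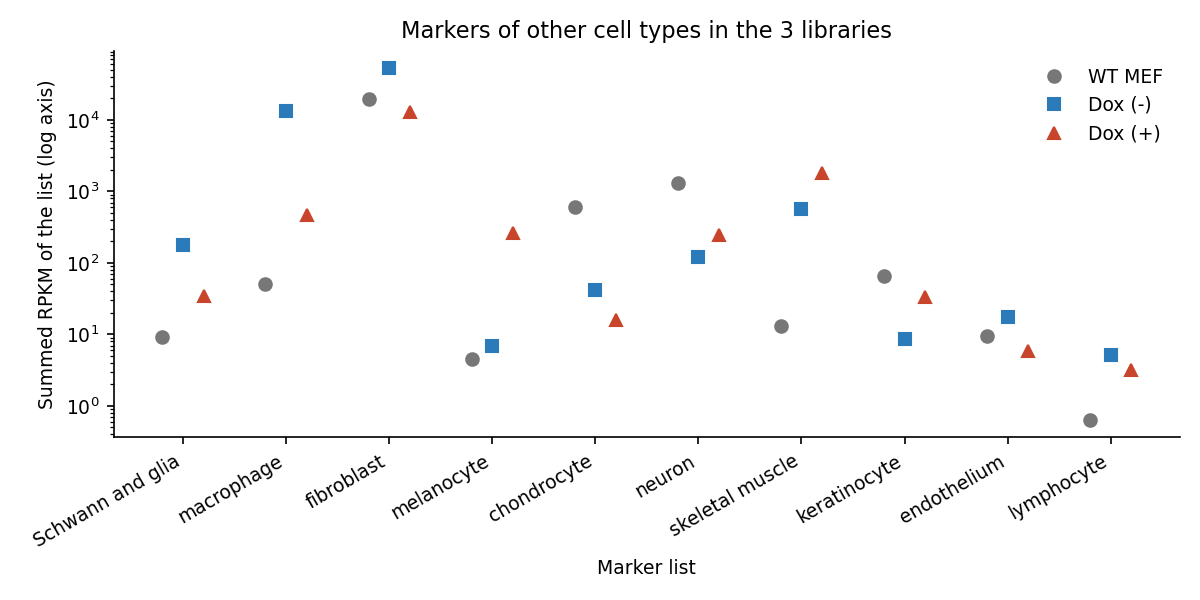
Summed RPKM of 10 marker lists in the 3 libraries, on a log axis. Each point is 1 library. The Schwann and glia, macrophage, fibroblast, endothelium and lymphocyte lists peak in Dox (-), and the melanocyte and skeletal muscle lists in Dox (+). The chondrocyte, neuron and keratinocyte lists peak in WT MEF.

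Pax3, a paired-box factor that acts with SOX10 on the Mitf promoter, was low in all libraries. It measured 0.216 RPKM in WT MEF, 2.58 RPKM in Dox (-) and 3.70 RPKM in Dox (+), and its non-overlapping exons summed to 12, 179 and 214 reads. The summed ratio between Dox (+) and Dox (-) was 1.22. Exon 1, in its 470 bp form, held 0, 0 and 1 reads in WT MEF, Dox (-) and Dox (+), so use of the annotated start was not shown. Exons 2 to 4 held 0, 28 and 62 reads, a ratio of 2.26 between Dox (+) and Dox (-) (1.43 to 3.68). Exons 5 to 8 of transcript Pax3-201 held 2, 70 and 66 reads, a ratio of 0.964 (0.678 to 1.37). The long form of the last exon, which contains exon 8 and held 105 reads in Dox (-) and 109 in Dox (+), gave a ratio of 1.06 (0.805 to 1.40). These groups of exons were chosen after the values were seen and reads across junctions can count on neighbouring exons, so their ratios are a description only.

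Genes that SOX10 and PAX3 are known to activate are reported here for 11 members, not for the whole list, so no direction of the list is given. Of these 11, 4 passed 10 RPKM between Dox (+) and Dox (-), and Mitf and Tyrp1 were called higher. The Mitf value does not separate transgene from endogenous reads. Ednrb, the endothelin receptor of melanoblasts, was called higher than WT MEF in both knock-in libraries, at 0.593, 26.7 and 53.5 RPKM in WT MEF, Dox (-) and Dox (+). Ret, a receptor of enteric crest cells, showed 1.95, 10.4 and 10.3 RPKM and was likewise called higher in both. Tyrp1, a pigment enzyme and MITF target, was at 0, 0.520 and 110 RPKM.

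Sox9, which drives chondrocyte fate and is also made by early crest and by melanocytes, was lowest in Dox (-). It measured 23.2 RPKM in WT MEF, 10.3 RPKM in Dox (-) and 25.0 RPKM in Dox (+). The 254 bp exon held 279 reads in Dox (+) and 92 in Dox (-), a ratio of 3.10 (2.44 to 3.97), while the sum over its 3 exons gave 1619 reads in Dox (-) and 2578 in Dox (+), a ratio of 1.63. The last exon alone, of 3089 bp, gave a ratio of 1.47 (1.37 to 1.57), so the size of the difference depended on the exon. All 3 exons were higher in Dox (+). Between Dox (+) and WT MEF the log2 fold change was 0.10 on the highest exon and -0.41 on summed reads, so no direction can be given for that pair. Dox (-) was 2.26-fold lower than WT MEF on the last exon (2.12 to 2.40).

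Cartilage genes that SOX9 activates were compared as a list. Of 8 listed, 2 passed 10 RPKM between Dox (+) and Dox (-) and Col2a1, the main cartilage collagen, was called lower in Dox (+). Col2a1 measured 599 RPKM in WT MEF, 24.5 RPKM in Dox (-) and 4.47 RPKM in Dox (+), and Cnmd, a cartilage matrix protein, 178, 1.00 and 0 RPKM. Both were called lower than WT MEF in each knock-in library. Col11a2 was called higher in Dox (-) than in WT MEF, at 13.8 and 2.47 RPKM.

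Tfap2a and Tfap2b encode AP-2 factors that act early in the crest, and TFAP2A also works beside MITF at pigment gene promoters. Tfap2a measured 0.383 RPKM in WT MEF, 7.82 RPKM in Dox (-) and 12.4 RPKM in Dox (+), on 13, 310 and 493 summed reads. It was called higher in Dox (+) than in WT MEF, where the 119 bp exon held 65 reads against 0, at least 22.2-fold more. Between Dox (+) and Dox (-) that exon gave a ratio of 2.37 (1.5 to 3.84) and the sum a ratio of 1.63. Of 7 exons with at least 10 reads, 6 were higher in Dox (+), and 3 of its 8 exons overlap Gm47061 or Gm26688. Tfap2b was barely detected, with about 6, 50 and 19 summed reads. Its 4527 bp last exon took about 6, 47 and 10 of them. These are rounded estimates, because the values of that exon did not give whole reads with its GENCODE M21 length. The level of Tfap2b in Dox (+), 0.373 RPKM, was 1 read on a 61 bp exon, so no fold is given for that exon.

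**Figure D5:**
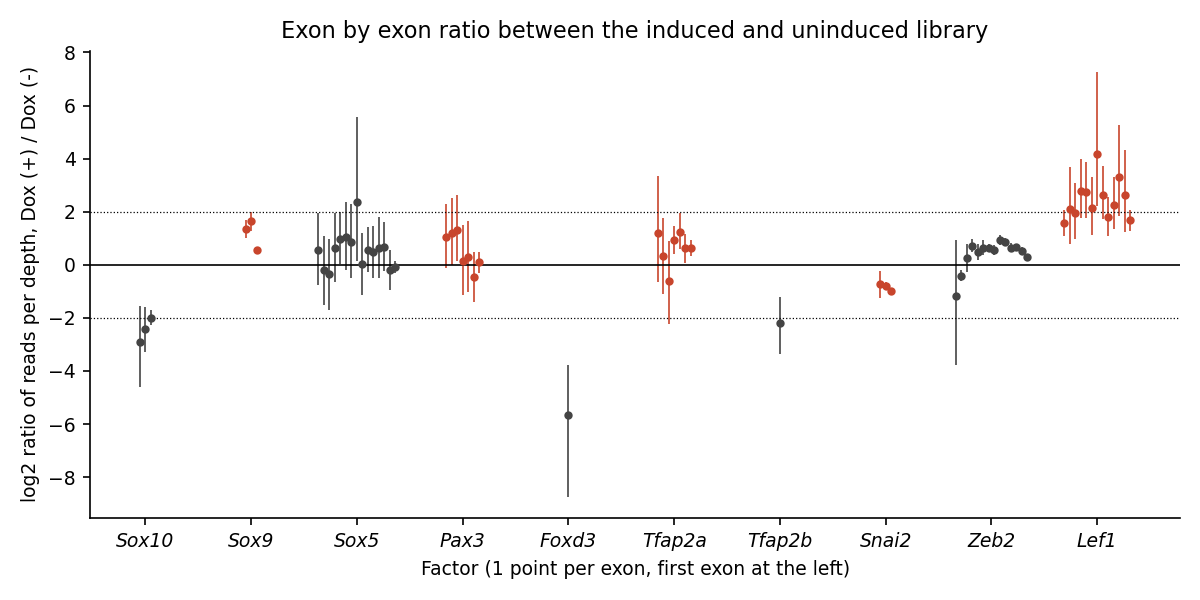
Log2 ratio of reads per depth in Dox (+) over Dox (-) for each non-overlapping exon with at least 10 reads in the 2 libraries together and reads in both, ordered 5′ to 3′ within each factor, with exact 95% counting intervals. Solid line, equal; dotted lines, 4-fold. All Lef1 exons lie above the solid line and all Sox10 and Snai2 exons below it.

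Sox5, a SOX factor without an activation domain that modulates SOX10 activity at melanocyte promoters, barely differed on its highest exon. That exon, of 30 bp, held 9, 10 and 10 reads, or 6.67, 7.41 and 7.58 RPKM in WT MEF, Dox (-) and Dox (+), and the ratio of Dox (+) to Dox (-) was 1.02 (0.382 to 2.74). Across its 18 non-overlapping exons 214, 512 and 569 reads were found, so that the longer view gave a ratio of 2.39 between Dox (-) and WT MEF and of 1.14 between Dox (+) and Dox (-). Of 15 exons with at least 10 reads in the knock-in libraries 11 were higher in Dox (+) and 4 lower. The internal first exon of Sox5-204 at chr6:143947016-143947106 had 1, 0 and 4 reads, too few for a comparison.

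Other transcription factors of the crest were compared as a list. Of 26 measured, 11 passed 10 RPKM between Dox (+) and Dox (-) and none was called in either direction. The median log2 fold change of the 11 that passed was 0.17, against 0.23 for all genes tested, and that of all 26 was -0.35. In Dox (-) against WT MEF 3 of the 11 that passed were called higher and none lower. These were Twist2 (8.85 to 56.8 RPKM), a mesenchymal basic helix-loop-helix factor, Msx2 (1.55 to 16.1 RPKM), a homeobox factor of the crest, and Zic2 (3.66 to 14.8 RPKM), a zinc-finger factor of the dorsal neural tube. In Dox (+) against WT MEF 1 of 10, Twist2 at 111 RPKM, was called higher.

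Genes with the most similar course over the 3 libraries were sought for Sox10, Sox9 and Pax3 by the Euclidean distance of log2(RPKM + 1), among 13587 genes above 10 RPKM in at least 1 library. For Sox9 they were D230017M19Rik (0.17), Gm4462 (0.18) and Cyp4f41-ps (0.27). Sox10 and Pax3 were themselves under 10 RPKM in each library, so the threshold on the candidates fixes their neighbours and none are named. With 3 libraries such likeness describes only the order and size of 3 values.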

How the data were processed

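RNA-seq libraries of WT MEF, Dox (-) and Dox (+) were analysed, 1 per group. Per the labels and methods, the authors prepared them with a kit that does not mark strand and aligned reads to mm10 with TopHat2 2.0.10. They counted reads per Ensembl exon with bedtools, without a stated setting for strand or spliced reads, and deposited RPKM values for 234718 exons. How these exons were chosen is not given in the sources used here. Columns were assigned by name, and 1 column whose name matched no library was not used, so PMel was not analysed here. The column named MEF was taken as WT MEF by its name alone. Its values differ from those of the MEF column in the study's supplementary expression data. Which wild-type library it holds is therefore not certain, and each comparison with WT MEF rests on that assignment. Exons were joined to genes and coordinates with GENCODE M21, and 6586 identifiers did not match. Depth was the divisor that made most values below 200 reads whole. Ratios carry exact conditional binomial intervals and levels exact Poisson intervals, both of counting error only. Exons that overlap another gene were kept, and left out as an alternative. Sums used the set of non-overlapping exons that covers the most bases.

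The members and lists were chosen with earlier results of these data known, and no direction shown here is independent support for them. All 10 factors were described, and of each list the genes called, at most 6 per list. Some listed genes are not reported here, and counts and sums of the glia list and of the SOX10 and PAX3 target list leave them out. Alternatives were run for both thresholds, for the pseudocount, for the exon that gives a level, for shared exons and for library scaling. The steps were tested on simulated reads. Python 3.11.15, pandas 2.3.3, NumPy 2.4.6, SciPy 1.17.1 and matplotlib 3.10.9 were used.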

Additional observations from a re-analysis of the deposited data

How the results depend on the processing

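No paired analysis was possible because each group had 1 library, and for the same reason no library could be left out. The alternatives planned for PMel were not run, since PMel was not analysed here. Counts are given as higher and lower, and changing the fold rule left the number of genes tested as it was. Between Dox (+) and Dox (-), 1 factor (Lef1) and 218 genes were higher and 720 genes lower, of 13307 tested. There a threshold of 1 RPKM gave 478 and 1448 of 17440 genes and 1 factor lower (Sox10). A threshold of 30 RPKM gave 138 and 426 of 10582 genes and 0 factors. A 2-fold rule gave 1439 and 1471 genes with 2 factors higher (Sox9, Lef1), and an 8-fold rule 92 and 415 genes with 0 factors. Summed reads gave 119 and 448 of 11107 genes with 0 factors, and rescaling by the median ratio also left 0 factors higher. In Dox (-) against WT MEF, 1 factor and 1093 genes were higher and 160 lower, of 13234 tested. With a threshold of 1 RPKM 2236 and 354 of 17338 genes were called, with 5 factors higher (Sox10, Pax3, Tfap2a, Zeb2, Lef1). All of these but Zeb2 passed 1 RPKM only through Dox (-). At 30 RPKM 667 and 100 of 10463 genes were called. A 2-fold rule gave 2285 and 1049 genes with 1 factor lower (Sox9), and an 8-fold rule 718 and 77 genes with 0 factors. Summed reads gave 659 and 95 of 11064 genes. In Dox (+) against WT MEF, 3 factors and 848 genes were higher and 440 lower, of 12941 tested. With 1 RPKM 1748 and 814 of 16865 genes were called, with the same 5 factors higher. All of these but Zeb2 passed 1 RPKM only through Dox (+). At 30 RPKM 557 and 285 of 10407 genes were called, with 1 factor (Zeb2). A 2-fold rule gave 2614 and 1162 genes with 1 factor lower (Snai2), and an 8-fold rule 436 and 213 genes. Summed reads gave 474 and 290 of 10870 genes with 1 factor higher (Zeb2). On summed reads 3 factors, not 5, were above 10 RPKM in Dox (+). Of 177 log2 fold changes of the factors under alternatives, 151 moved by less than their counting interval and 26 by more. The sign changed in 5, all of them near 0 in the main values. For Dox (+) against Dox (-) these were Tfap2b on summed reads (-0.14) and Sox5 after rescaling (-0.17). For Dox (+) against WT MEF they were Sox9 on summed reads (-0.41) and after rescaling (-0.16) and Sox5 after rescaling (-0.08). Depth limited what could be said of Tfap2b, Foxd3, Pax3 and the short exons of Lef1 and Sox5, which rest on few reads.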
